A study of Drosophila melanogaster with 6 samples.

Results

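This account covers 32 genes of the fly synapse, measured in the heads of adult Drosophila melanogaster males. The genes were taken by name from 5 kinds of synaptic component, though earlier results of these data were known when they were chosen. These are vesicle fusion (9 genes), the active zone and vesicle pool (5), and vesicle endocytosis (7). The others are adhesion and scaffold proteins (6), and transmitter synthesis and vesicle loading (5). The array's annotation, which named 11953 genes in all, gave 25 of the 32 a probe set of their own, 43 probe sets together. One further probe set is annotated to stnA and stnB jointly. Syt1, Syt4, Syx1A, comt and Fas2 had no probe set under their names in the annotation and are not analysed here.

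Heads came from brothers of a single-pair cross, 2 to 5 days old and kept at 25 °C. One group of 3 arrays was from males of the strain cm Sxlfp7BO ct, whose X chromosome lacks the whole Sex-lethal locus (Sxl, the switch gene of female development) and also carries the marker mutations carmine (cm) and cut (ct) on either side. The other 3 arrays were from their wild-type Oregon-R brothers, and the deletion had been backcrossed to that strain. The deletion therefore cannot be told apart from the marker mutations and from linked X-chromosome sequence that was carried with it. Whole heads hold eye, brain, glia, muscle and fat body, so fewer cells of a type and less RNA per cell cannot be told apart either.

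At a chemical synapse a calcium signal makes vesicles fuse with the membrane of the nerve terminal. The vesicle protein synaptobrevin and the membrane proteins syntaxin and SNAP-25 zip into a SNARE complex, synaptotagmin senses the calcium, and complexin and the Sec1/Munc18 protein Rop control the step. Fusion takes place at active zones, which Bruchpilot and Rim organise, and the membrane is then recovered by clathrin, dynamin and their partners.

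The labels were checked on Sxl. Its 3 probe sets had mean intensities from 97.8 to 190 in wild type (n = 3 arrays) and from 4.65 to 6.19 in deletion males, close to the lowest intensity on any array, 3.52. The 6 arrays had medians from 14.2 to 14.6 and correlated at 0.994 to 0.998 with each other. The neuronal markers elav, nrv3, Appl and CadN were well above the filter on low values, with mean wild-type intensities of 400.1, 3577, 1156 and 158, so RNA of neurons was present in every group.

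Most of the synaptic genes lay close to their wild-type level. Of the 25 values tested, 24 genes by their brightest probe set and the joint stnA/stnB probe set, 1 passed the limma adjusted p of 0.05, and this was dlg1, higher in deletion males. That is 4% of the values, against 2.69% of all 8670 genes tested (1.2% higher and 1.49% lower), so the share is near the background. The median log2 fold change from wild type to deletion was -0.02, and the median over all genes was 0.00. The values ran from -0.17 (Nlg2) to 0.61 (dlg1), with 8 above and 17 below 0. The dlg1 call and its 0.61 depend on how the probe set was chosen, since brightness was averaged over both genotypes. In wild type alone another dlg1 set was brighter, with a mean of 264 against 244. The set used ranked first through its deletion mean of 370 against 247. That other set was not called (log2 fold change -0.09, limma adjusted p = 0.498).

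The intervals around these small differences were narrow. For 24 of the 25 values the 95% interval of the fold change lay within 1.5-fold in either direction, and for 23 within 1.3-fold. Over all genes tested, dim ones with wider intervals included, these shares were 93.1% and 72.9%. The exceptions at 1.3-fold were dlg1 and nSyb. The groups of arrays did not overlap for 6 of the 25, dlg1 and Rop higher and Snap25, Rab3, AP-2alpha and Gad1 lower, which is 24% against 25.1% of all genes (12.1% higher and 13% lower). Nlg1, a postsynaptic neuroligin, had a mean intensity of 7.26 in wild type and 6.95 in deletion males, under the filter on low values of 8.35, and was not tested.

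**Figure D1:**
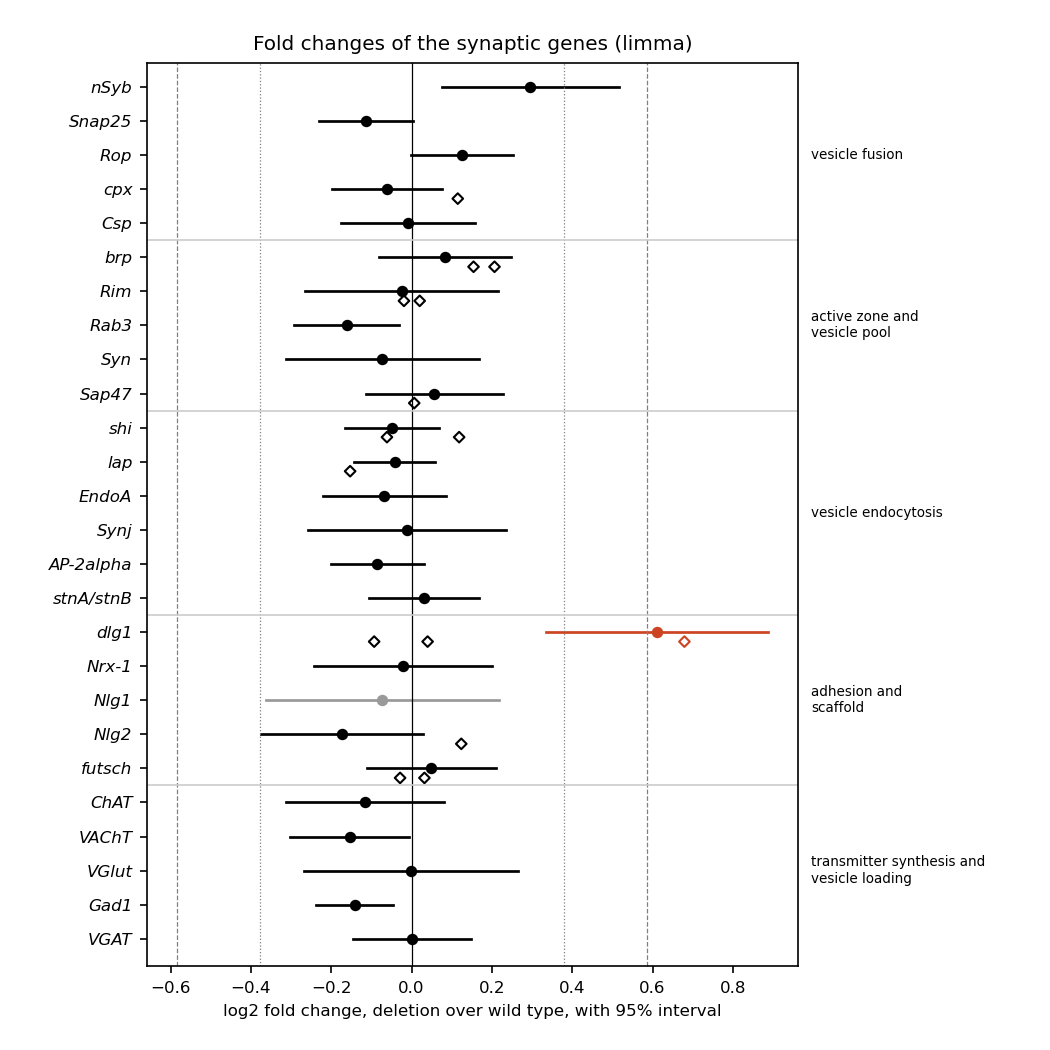
Log2 fold change from wild type to deletion (x axis) for each synaptic gene by its brightest probe set (dots, with the 95% interval from limma), grouped by role. Red marks an adjusted p under 0.05, grey a gene under the filter on low values, diamonds the gene's other tested probe sets, and dotted and dashed lines 1.3-fold and 1.5-fold. Only dlg1 is red, at 0.61, and its other probe sets lie at 0.68, 0.04 and -0.09.

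dlg1 encodes Discs large, a membrane-associated scaffold protein that clusters channels and adhesion molecules at synapses and also sits at septate junctions of epithelia. On its brightest probe set the wild-type intensities were 197, 259 and 277 and the deletion intensities 349, 378 and 382. All 3 deletion arrays were above all 3 wild-type arrays, and the lowest wild-type value was replicate 1. The log2 fold change was 0.61 ± 0.12 (SE, n = 3 arrays per genotype), or 1.53-fold, with a 95% interval from 0.33 to 0.89 and a limma adjusted p of 0.0448. With the replicate number as a block the adjusted p was 0.00601. Without the intensity trend in the variance model it was 0.0788, and leaving out wild-type replicate 2 or deletion replicate 1, 2 or 3 also ended the call, with adjusted p of 0.0899, 0.104, 0.168 and 0.162 while the log2 fold change stayed between 0.59 and 0.66.

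The 4 probe sets of dlg1 did not move together. The third in brightness rose from 118, 162 and 158 to 225, 238 and 232 (log2 fold change 0.68 ± 0.12 SE, limma adjusted p = 0.0295). The second had 244, 269 and 279 in wild type and 245, 247 and 249.9 in deletion males (log2 fold change -0.09, adjusted p = 0.498). It exceeded the set ranked brightest on every wild-type array and lay below it on every deletion array. The dimmest lay between 15.4 and 18.7 in wild type and reached 19.2 in deletion males (0.04, adjusted p = 0.898). The groups were thus apart on 2 probe sets and overlapped on the other 2.

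The disagreement was measured within arrays. The log2 difference of the second probe set minus the brightest was 0.31, 0.06 and 0.01 on the wild-type arrays and -0.51, -0.62 and -0.61 on the deletion arrays, a shift of -0.70. The exact two-sided permutation p was 0.1, the smallest that 3 against 3 arrays allow. For the third minus the brightest, both of which rose, the same shift was 0.07 (exact permutation p = 0.2). For the dimmest it was -0.57 (exact permutation p = 0.1). These comparisons were made only for dlg1, because it had a called probe set, and the set subtracted was itself called. A separation from sets that did not move was therefore largely set in advance, and these p-values add no support for it. Averaged over its 4 probe sets, dlg1 stood at 0.31 on the log2 scale without a call (limma adjusted p = 0.0966). Which transcripts each probe set matches was not examined here. The names of the second and the third end in _a_at, the array maker's mark for a set that matches several transcripts of a gene.

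**Figure D2:**
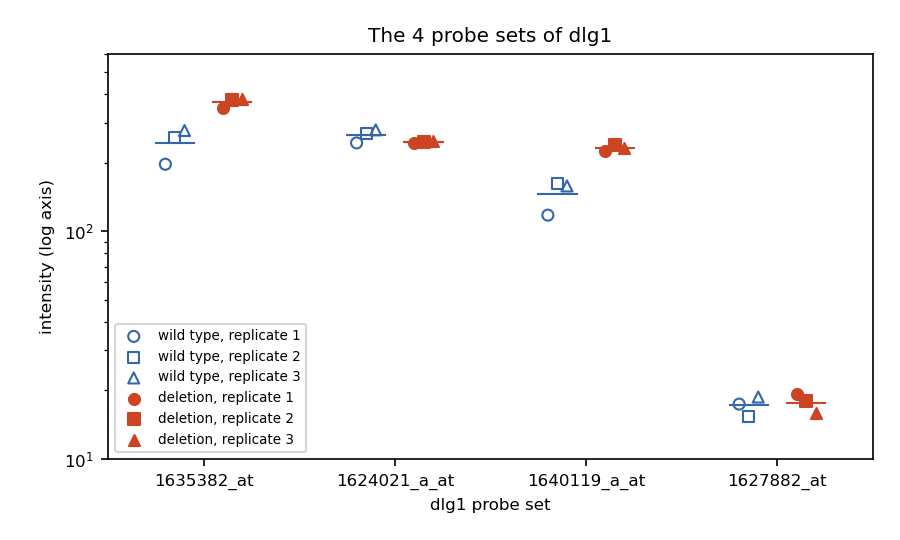
Intensity (log axis) of the 4 dlg1 probe sets on each of the 6 arrays, wild type in open blue and deletion in filled red symbols, with 1 symbol shape per replicate number and bars at the means. From left to right the sets run from the brightest to the dimmest; the genotypes separate on the first and the third and overlap on the others.

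The ratio of 3' to 5' signal of the array's control transcripts, a sign of RNA integrity, was compared beside this. For eIF-4a wild type had 3.79 ± 0.269 and deletion males 3.40 ± 0.0930 (SD, n = 3, exact permutation p = 0.1), for actin 3.38 ± 0.341 and 3.11 ± 0.288 (exact permutation p = 0.2) and for GAPDH 3.67 ± 0.106 and 3.81 ± 0.107 (exact permutation p = 0.3). Their part in the difference between the dlg1 probe sets was not tested.

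dlg1 lies on the X chromosome, 414 protein-coding genes from Sxl on the side of ct, well outside the stretch from cm (9 genes from Sxl on the other side) to ct (36 genes). Among the 70 other tested genes within 50 genes of dlg1, a distance chosen with these results known, 5 were called, or 7.14%, against 4.56% of all X-linked genes outside the stretch from cm to ct and 2.21% of autosomal genes. They were Antdh (log2 fold change 0.46), pkm (0.41), Dlic (-0.44), ssp7 (-0.89) and CG15199 (-1.52), 2 higher and 3 lower. Whether dlg1 differed for the same reason as these neighbours was not tested. The other X-linked values were small: shi at -0.05, futsch at 0.05 and stnA/stnB at 0.03, which are 877 and 1517 genes from Sxl on the ct side for shi and stnA, and 535 on the cm side for futsch.

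In the fusion machinery no gene of the 5 measured passed the threshold, 2 being above 0 and 3 below. nSyb, the neuronal synaptobrevin of the vesicle, had 349, 428 and 349.8 in wild type and 417, 476 and 488 in deletion males. Each deletion array was above the wild-type array of the same number, but the groups overlapped, since the highest wild-type value exceeded the lowest deletion value. All 3 such pairs went the same way, up or down, for 48% of the 25 values and 45.9% of all genes tested. The nSyb log2 fold change was 0.30 ± 0.10 (SE), with a 95% interval from 0.07 to 0.52 and a limma adjusted p of 0.163. With the replicate block it was 0.0433, which made nSyb the second synaptic gene called there, 2 of 25 values or 8%, both higher, against 7.73% of all genes (3.4% higher and 4.33% lower). With the block but no intensity trend neither nSyb (adjusted p = 0.138) nor dlg1 (0.0501) passed.

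Other genes of the fusion machinery were not called either, and their difference from nSyb was not tested. Snap25, the membrane SNARE protein, had 2601, 2872 and 2585 in wild type and 2441, 2441 and 2556 in deletion males (log2 fold change -0.11 ± 0.05 SE, limma adjusted p = 0.297). All deletion values were below all wild-type values, while nSyb had the opposite sign with overlapping groups. Rop, the Sec1/Munc18 protein that binds syntaxin, had 603, 649.5 and 648 against 656, 693 and 724 (0.13 ± 0.05, adjusted p = 0.29). Its groups did not overlap either, with deletion higher.

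The clamp protein gene cpx (complexin) had 2 probe sets with log2 fold changes of -0.06 and 0.12, and Csp, the cysteine string protein that acts as a chaperone of SNAP-25, had -0.01. The groups overlapped for both genes, with Csp intensities from 702 to 829 on the 3 wild-type arrays and from 749 to 819 on the deletion arrays.

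No active zone or vesicle pool gene was called, and 2 of the 5 were above 0. brp, which encodes the Bruchpilot scaffold of the dense active zone projections, had 79.8, 83.2 and 81.6 in wild type and 80.5, 91.8 and 87.4 in deletion males (log2 fold change 0.08, 95% interval -0.08 to 0.25). Its other tested probe sets had 0.15 and 0.21, so all 3 were above 0 without a call, and the remaining one was under the filter. Rim, the active zone protein that tethers calcium channels and binds Rab3, had -0.02 on its brightest probe set and 0.02 and -0.02 on the others.

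Rab3, the small GTPase of the vesicle membrane, had 889, 999 and 966 in wild type and 870.5, 813 and 865 in deletion males. Every deletion array was below every wild-type array, but the difference was small (log2 fold change -0.16 ± 0.06 SE, 95% interval -0.29 to -0.03) and the limma adjusted p was 0.188. Syn, the synapsin that holds vesicles in reserve, had 1098, 1349 and 1412 against 1095, 1307 and 1256 (-0.07), and Sap47, a synapse-associated protein, had 0.06 and 0.01 on its 2 probe sets. For Syn the first array of each genotype was the lowest and the groups overlapped.

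The 6 endocytic values had log2 fold changes from -0.08 to 0.03 on the brightest probe sets, 1 above 0 and 5 below and none called. shi, the dynamin that pinches vesicles off, had 609, 635 and 649.5 in wild type and 635, 612 and 583 in deletion males on its brightest probe set (-0.05). A second probe set gave -0.06, and the third, with 252, 259 and 241 against 266, 276 and 275, gave 0.12 (95% interval 0.00 to 0.24, limma adjusted p = 0.282). On that probe set the groups did not overlap, with deletion higher, while they overlapped on the others.

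AP-2alpha, the large subunit of the clathrin adaptor, had 483, 498 and 531 in wild type and 475, 468 and 482 in deletion males, lower without overlap (log2 fold change -0.08, limma adjusted p = 0.443). The clathrin assembly gene lap (AP180) had -0.04 on its brightest probe set and -0.15 on a second, dimmer one (limma adjusted p = 0.62), EndoA (endophilin, which bends the membrane) -0.07 and Synj (synaptojanin, the lipid phosphatase of uncoating) -0.01. The probe set of stnA and stnB, the stoned proteins made from a single dicistronic transcript, had 1162, 1279 and 1333 against 1231, 1325 and 1295 (0.03, 95% interval -0.11 to 0.17). It cannot assign signal to either reading frame, and the genotypes overlapped on it.

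Apart from dlg1, the adhesion and scaffold genes showed no call. Nrx-1, the presynaptic neurexin, had 310.1, 362 and 395 in wild type and 324, 377 and 348 in deletion males (log2 fold change -0.02). Nlg2, a neuroligin and so of the family that neurexin binds, had 241, 277 and 299 against 229, 235 and 258 (-0.17 ± 0.09 SE, limma adjusted p = 0.357). Each deletion array of Nlg2 was below the wild-type array of equal number, although the groups overlapped. A second, dim Nlg2 probe set near 9 had 0.12 (adjusted p = 0.694). futsch, the microtubule-associated protein of the nerve terminal, had 0.05 on its brightest probe set and -0.03 and 0.03 on both dim ones.

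The transmitter genes mark 3 kinds of neuron: ChAT and VAChT acetylcholine, VGlut glutamate, and Gad1 and VGAT GABA. None was called. The GABA-synthesising enzyme gene Gad1 had 2407, 2582 and 2586 in wild type and 2296, 2263 and 2306 in deletion males. All deletion values were below all wild-type values, with a log2 fold change of -0.14 ± 0.04 (SE), a 95% interval from -0.24 to -0.05 and a limma adjusted p of 0.13. It passed with array weights (adjusted p = 0.0391) and without wild-type replicate 1 (0.0368), and in no other setting tried. VGAT, which loads the same transmitter into vesicles, had 166, 179 and 177 against 171, 167 and 185 (0.00, 95% interval -0.15 to 0.15).

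The cholinergic genes ChAT and VAChT lie at a shared locus in flies, VAChT within the first intron of ChAT. ChAT, the acetylcholine-synthesising enzyme, had 511, 606 and 644 in wild type and 535, 522 and 560.4 in deletion males (log2 fold change -0.12, limma adjusted p = 0.545). VAChT, the vesicular acetylcholine transporter, had 339, 384 and 384 against 335, 340.4 and 318 (-0.15, adjusted p = 0.267). Both had overlapping groups, though for VAChT only the highest deletion value, 340.4, exceeded the lowest wild-type value, 339. The VAChT 95% interval ran from -0.30 to -0.01, and each deletion array was below the wild-type array of equal number. Such agreement of all pairs, in either direction, was found for 45.9% of all genes tested. The within-array log2 difference of the ChAT value minus the VAChT value averaged 0.66 ± 0.08 on wild-type arrays and 0.70 ± 0.10 on deletion arrays (SD, n = 3, exact permutation p = 0.6). VGlut, the vesicular glutamate transporter, had 41.9, 50.7 and 39.0 against 41.7, 41.2 and 48.1, with a log2 fold change of 0.00 and a 95% interval from -0.27 to 0.27.

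**Figure D3:**
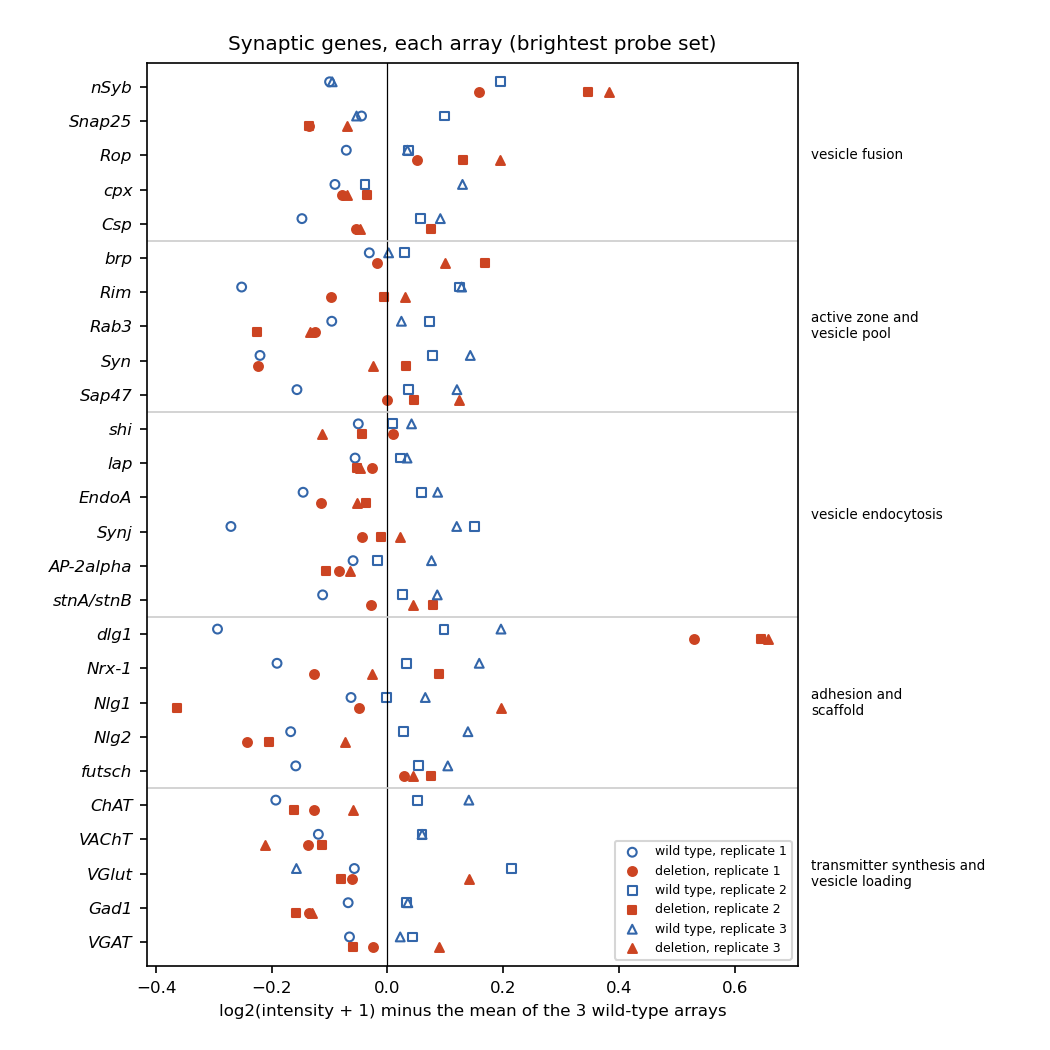
Deviation of each array from the mean of the 3 wild-type arrays on the log2(intensity + 1) scale (x axis) for the synaptic genes by their brightest probe set, wild type in open blue and deletion in filled red symbols, with 1 shape per replicate number. The open circle of wild-type replicate 1 is the lowest wild-type symbol for nearly every gene, and dlg1 is the gene with all deletion arrays far to the right.

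The wild-type arrays differed among themselves on these genes. Replicate 1 was the lowest of the 3 wild-type arrays for 23 of the 25 values (92%), all but Snap25 and VGlut, against 43.7% of all genes tested. The median deviation of the synaptic values from the wild-type mean was -0.11 on replicate 1, 0.05 on replicate 2 and 0.09 on replicate 3, and -0.06, -0.03 and -0.03 on the deletion arrays. On these medians the deletion arrays lay within the wild-type range only because of replicate 1, since wild-type replicates 2 and 3 were above all 3 of them. Over all genes the same medians lay between -0.01 and 0.01 on every array.

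Results that rest on this array were also taken without it. Without wild-type replicate 1, 21 of the 25 values were below 0, the median log2 fold change was -0.11 (-0.01 over all genes), and dlg1 (0.46, limma adjusted p = 0.0085) and Gad1 (-0.18) were called. Calls over all probe sets also rose in that fit, from 293 to 432. Without wild-type replicate 3 or deletion replicate 1 the median was 0.00, with 13 and 14 values above 0. The balance of 17 below to 8 above thus depended on single arrays.

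Markers of other cells were set beside this. The summed intensity of 9 neuronal marker genes outside the synaptic list ran from 6497 to 6830.1 on the wild-type arrays and from 6717 to 6987 on the deletion arrays. The largest part of these sums was nrv3, with a mean of 3577 in wild type. Of the 9 genes 6 were above 0 and 3 below, none was called, and replicate 1 gave the lowest sum in wild type. Of 8 glial markers 7 had values below 0 without a call, with sums from 8177 to 8813 and from 8011 to 8199; with the replicate block alrm (limma adjusted p = 0.0124) and nrv2 (0.0377) were called lower, 2 of 8 against 7.73% of all genes. All 6 measured photoreceptor markers were above 0 and inaD was called, or 1 of 6 against 2.69% of all genes. Their sums ran from 23022 to 27493 in wild type, lowest on replicate 1, and from 30245 to 31069.6 in deletion males. Of 6 fat body markers tested, fit, Obp99b and tobi were called lower, or 3 of 6 against 2.69% of all genes. Lsp2 (-0.35) and apolpp (-0.08) were lower without a call, and Fbp1, dim at 8.34 in wild type, was higher (0.12). The fat body sums ran from 20871 to 25012 in wild type, highest on replicate 1, and from 15216 to 17567 in deletion males. Muscle sums (5 genes, none called) were 2751 to 3281 and 3054 to 3317. Measured were 8 of 9 listed glial, 6 of 10 photoreceptor, 7 of 8 fat body and 5 of 9 muscle markers. All measured markers of these lists were above the filter except the yolk protein gene Yp1 of the fat body list. With the block chp and trp joined the called photoreceptor markers, higher, and Lsp2 the fat body markers, lower, while no neuronal or muscle marker was called. That made 3 of 6 photoreceptor and 4 of 6 fat body markers, against 7.73% of all genes. The part of these markers in the synaptic values was not tested.

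A further 48 synaptic genes outside the 32 were listed, of which 43 were measured. None passed the limma threshold, as 2.69% of all genes did. Their median log2 fold change was -0.04, with 17 above 0 and 26 below, all 43 intervals lay within 1.5-fold, and 9 had a limma p under 0.05 before adjustment, or 20.9%, against 18.6% of all genes. Among the 25 values above, that share was 20%.

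With the replicate block 3 of these 43 passed, all lower, or 6.98% against 7.73% of all genes. Cadps, the CAPS protein that primes dense-core vesicles, had 626, 744 and 728 in wild type and 560.4, 584 and 557 in deletion males (log2 fold change -0.30, limma adjusted p = 0.0724, 0.0222 with the block). Syt7, a synaptotagmin known in mammals as a slow calcium sensor, had 871, 893 and 837 against 761, 804 and 751 (-0.17, adjusted p = 0.117, 0.0459 with the block). Graf, a regulator of endocytosis, had 516, 507 and 528 against 452, 461 and 432 (-0.21, adjusted p = 0.0664, 0.0462 with the block). All 3 had deletion values wholly below the wild-type values. Of the 43 genes, 9 were wholly lower in this way and 6 wholly higher. Over all 8670 genes tested, 1130 (13%) were wholly lower and 1049 (12.1%) wholly higher. Wholly lower genes were thus a larger share of the 43 than of all genes, and wholly higher ones a slightly larger share. These differences in share were not tested. unc-13, the priming factor of the active zone, had -0.07, and cac, the presynaptic calcium channel, had -0.11. Both were also wholly lower, but neither was called with or without the block. Cadps, Syt7 and unc-13 lie on chromosome 4, and Graf and cac on the X, 843 and 489 genes from Sxl. Some other X-linked genes of this list were above 0, such as Scamp (0.23). The part of location in these values was not tested.

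**Figure D4:**
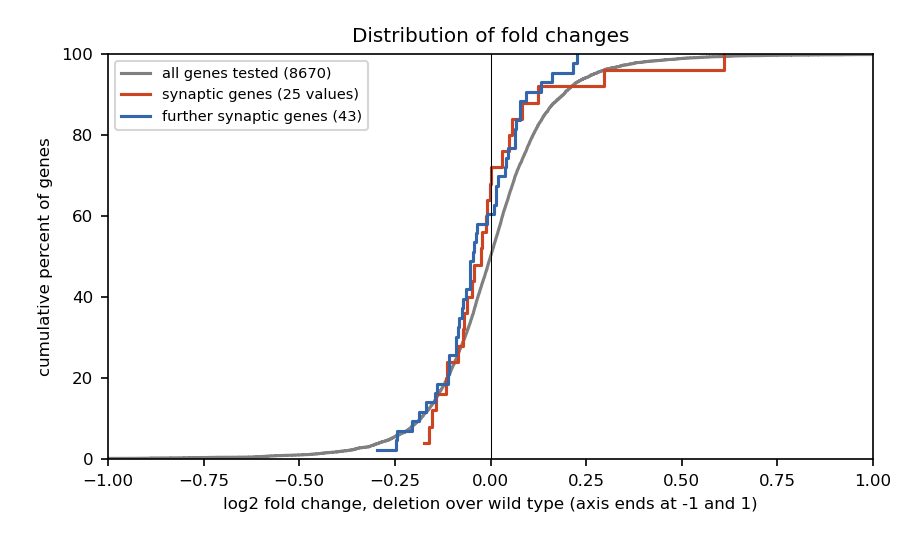
Cumulative percent of genes (y axis) by log2 fold change from wild type to deletion (x axis, ending at -1 and 1) for all 8670 genes tested (grey), the 25 synaptic values (red) and the 43 further synaptic genes (blue). The synaptic curves are steep around 0, with medians of -0.02 and -0.04, and dlg1 at 0.61 is the last red step.

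Where a gene had more than 1 tested probe set, the sets were compared. This was so for 9 genes, brp, Rim, cpx, Sap47, shi, lap, dlg1, Nlg2 and futsch. Their probe sets differed in sign for 6 genes, but the 95% intervals of all sets of a gene overlapped for each of them except dlg1. The largest spread besides dlg1 (0.77 between its lowest and highest log2 fold change) was 0.30 for Nlg2, whose second set is dim.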

How the data were processed

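For each of 6 Affymetrix arrays the authors deposited a linear intensity for every probe set; how these were summarised and normalized is not stated in the labels or file. Array medians differed by 0.04 on the log2 scale (limit 0.2), so no further normalization was applied. Arrays have no read depth, and their number limits the precision.

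limma 3.58.1 under R 4.3.3 was run on log2(intensity + 1) (lmFit, eBayes with intensity trend, genotype as the only term, two-sided). After 183 control sets were dropped from the 18952 on the array, the 11261 with a mean at or above the 40th percentile (intensity 8.35) were tested, with Benjamini-Hochberg adjustment over all of them and a threshold of 0.05. Each gene was represented by its brightest probe set, by the mean over the arrays of both genotypes. All 32 genes are reported by rule, with Sxl as a check of the labels and further synaptic genes where they passed; Cadps, Syt7, Graf, unc-13, cac, the 4 neuronal markers given singly and the genes near dlg1 were chosen after their values were seen.

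The platform annotation named 1 gene for 13647 probe sets, 402 had several and 4720 none; 13544 names were updated by Entrez identifier and 91 by symbol or synonym through RefSeq genes (assembly Release 6 plus ISO1 MT), used also for gene order. The genes and lists were chosen with earlier results of these data known. Nothing states what separates replicates beyond the labels' word biological, so p-values measure the spread between these samples.

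Deviations from genotype means correlated at 0.216, 0.248 and 0.114 between arrays of equal replicate number, each above the bound of 0.1, so the numbers may pair the arrays. This pairing comes from the values. The main fit and the exact permutation tests are unpaired, and the fit with the replicate block is an alternative, given beside results whose call it changes. The procedure was tested on simulated data. Alternatives covered filter, pseudocount, normalization, variance model, array weights, replicate block, threshold, probe set choice and omission of each array.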

Additional observations from a re-analysis of the deposited data

How the results depend on the processing

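The count of 1 called synaptic gene (dlg1) became 2 with the replicate block (nSyb added) and with array weights (Gad1 added), and 0 without the intensity trend, with the mean of each gene's probe sets, and with the block but no trend, the last an alternative chosen after the data were seen. Leaving out single arrays gave 0 to 2, with 0 without wild-type replicate 2 or deletion replicate 1, 2 or 3. The filter, pseudocount, quantile normalization, robust and threshold settings and the probe set of largest range left it at 1. Over all probe sets the 293 calls became 128 without the trend, 572 with array weights, 833 with the block, 158 with the block and no trend and 683 at a threshold of 0.1. Leaving out 1 array at a time gave 56 to 432. The median log2 fold change of the synaptic values ran from -0.11 (without wild-type replicate 1) to 0.0048 (without deletion replicate 1) when single arrays were left out. dlg1 was above 0 under all 18 alternatives, from 0.31 to 0.71, and called in 11, with adjusted p from 0.00601 to 0.168. None of these chose the probe set by wild-type intensity alone. That choice would represent dlg1 by the set at -0.09, which was not called (limma adjusted p = 0.498). The block changed no other call among the 25 values, and no called value changed sign. The cause of these changes was not tested. With 3 arrays per genotype, changes of single genes as small as most of those here are hard to tell from replicate spread.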
